A study of Homo sapiens with 2 samples.

Results

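The genes described here present antigens on MHC class I and class II molecules. They were picked by gene symbol, with earlier results of these data known, and comprise HLA-B, HLA-C, HLA-E, B2M, TAP1, PSMB8, PSMB9, HLA-DRA and CD74, 9 genes of the 13219 listed in at least 1 library. They were measured by RNA sequencing in a human breast cell line that the labels call 231, a name in common use for the invasive breast cancer line MDA-MB-231. One library came from cells transfected against YBX1 (siYBX1), the gene of the RNA- and DNA-binding protein YB-1, and one from cells transfected with a control (siNC). Both groups were grown in L15 medium with fetal bovine serum, and the design text gives 48 h between transfection and sampling. The reagent against YBX1 is an siRNA in the labels but a Smart Silencer in the design text, and what the control contains is not said.

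Every group held 1 library, so no difference below has a replicate check, no test was possible, and no p-value or SD is given. The deposited values are FPKM, fragment numbers divided by transcript length and by library size. No counts came with them, so depth and counting error are unknown. Summed over all listed genes, FPKM came to 222872 for siYBX1 and 201233 for siNC. YBX1 itself stood at 38.1 FPKM with siYBX1 and at 649 FPKM with siNC, a 17.0-fold lower level in the cells transfected against it. Of 10 markers of mesenchymal, basal-like breast lines, all were listed in both libraries, with a summed 1334 and 1605 FPKM. They did not move together: FOSL1 (187 against 531 FPKM, -1.50 in log2(FPKM + 1), siYBX1 minus siNC) and KRT8 (27.7 against 74.7 FPKM, -1.40) were at least 2-fold lower with siYBX1, while CAV1 (0.76) and AXL (0.48) differed upward by less. Of 9 luminal markers, 4 were listed with siYBX1 and 6 with siNC, with sums of 31.7 and 24.7 FPKM, and ESR1, PGR and TFF1 were in neither. XBP1, also a stress response gene, stood at 18.8 against 8.47 FPKM (1.06), EPCAM at 5.10 against 8.22, ERBB2 at 5.74 against 5.44 and GATA3 at 2.14 against 2.34 FPKM.

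MHC class I molecules show peptides from the cell's own proteins to CD8+ T cells. The proteasome cuts the proteins, the TAP transporter carries the peptides into the endoplasmic reticulum, and there they are loaded onto a heavy chain paired with beta-2-microglobulin. Interferon gamma and NF-kB signalling are known to raise this machinery, including the inducible proteasome subunits. MHC class II molecules show peptides from endosomes to CD4+ T cells and are best known from dendritic cells, macrophages and B cells, but tumour cells can express them too. The invariant chain CD74 occupies the class II groove until endosomal proteases remove it.

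Promoters of class I and class II genes carry a short array of elements called the SXY module, which ends in a CCAAT box, and class I promoters add an NF-kB site and an interferon response element. RefSeq promoters (build GRCh38.p14, 250 bases before to 50 after the transcript start) were at hand for 7 of the 9 genes, and HLA-E and HLA-DRA had no entry. They are shown to set heavy chain genes with a difference of at least 2-fold (HLA-B and HLA-C) beside the light chain gene (B2M), a transporter gene (TAP1), a class II chain gene (HLA-DRB1, in place of its partner HLA-DRA) and the invariant chain gene (CD74). Capitals mark a match on either strand to CCAAT, to TGACGC, which resembles the X2 element, or to CTGATGATG, which resembles part of some class II X boxes. They also mark matches on either strand to AANNGAAA, the core of interferon response elements, and to the NF-kB-like GGGNNTTNC. Matches can overlap, as the AANNGAAA pairs of B2M and TAP1 do.
HLA-B, chr6:31357130-31357429, minus strand: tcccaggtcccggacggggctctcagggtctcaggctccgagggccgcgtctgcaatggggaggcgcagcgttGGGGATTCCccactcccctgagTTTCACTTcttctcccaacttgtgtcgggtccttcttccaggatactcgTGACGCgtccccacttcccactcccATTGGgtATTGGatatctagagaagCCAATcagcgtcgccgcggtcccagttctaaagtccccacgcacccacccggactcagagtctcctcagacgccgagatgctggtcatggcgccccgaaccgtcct
HLA-C, chr6:31272043-31272342, minus strand: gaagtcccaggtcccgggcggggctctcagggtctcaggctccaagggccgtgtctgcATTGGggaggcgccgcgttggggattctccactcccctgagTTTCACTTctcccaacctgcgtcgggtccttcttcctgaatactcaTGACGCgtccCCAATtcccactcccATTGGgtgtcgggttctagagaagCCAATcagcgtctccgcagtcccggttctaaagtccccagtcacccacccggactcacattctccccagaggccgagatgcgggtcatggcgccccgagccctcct
B2M, chr15:44711267-44711566, plus strand: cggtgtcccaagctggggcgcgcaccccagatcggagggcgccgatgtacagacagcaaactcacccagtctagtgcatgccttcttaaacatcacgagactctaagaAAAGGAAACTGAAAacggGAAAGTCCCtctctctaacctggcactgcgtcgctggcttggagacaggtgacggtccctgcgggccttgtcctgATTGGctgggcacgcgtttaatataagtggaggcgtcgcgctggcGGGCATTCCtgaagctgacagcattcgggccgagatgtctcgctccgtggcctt
TAP1, chr6:32853655-32853954, minus strand: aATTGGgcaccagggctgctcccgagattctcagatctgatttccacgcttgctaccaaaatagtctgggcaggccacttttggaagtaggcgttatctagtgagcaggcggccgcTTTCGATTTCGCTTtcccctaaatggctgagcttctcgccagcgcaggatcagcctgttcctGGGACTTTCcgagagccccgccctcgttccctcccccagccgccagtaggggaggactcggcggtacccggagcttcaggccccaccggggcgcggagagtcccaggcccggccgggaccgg
HLA-DRB1, chr6:32589799-32590098, minus strand: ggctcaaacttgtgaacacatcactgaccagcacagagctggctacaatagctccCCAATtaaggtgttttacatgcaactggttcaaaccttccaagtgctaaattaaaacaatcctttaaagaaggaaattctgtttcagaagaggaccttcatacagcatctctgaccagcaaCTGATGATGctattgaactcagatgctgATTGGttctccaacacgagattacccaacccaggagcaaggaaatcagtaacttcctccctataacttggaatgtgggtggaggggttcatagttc
CD74, chr5:150412861-150413160, minus strand: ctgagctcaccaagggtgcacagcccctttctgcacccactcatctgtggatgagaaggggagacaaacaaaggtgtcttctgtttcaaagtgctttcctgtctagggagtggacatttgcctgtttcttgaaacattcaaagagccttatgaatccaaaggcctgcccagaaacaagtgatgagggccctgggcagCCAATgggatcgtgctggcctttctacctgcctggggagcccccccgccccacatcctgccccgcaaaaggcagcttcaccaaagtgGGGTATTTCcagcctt

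HLA-B and HLA-C both held TGACGC, AANNGAAA and CCAAT, with 3 and 4 CCAAT matches. HLA-B also held the NF-kB-like motif, and HLA-C did not in these letters. B2M held 2 NF-kB-like and 2 AANNGAAA matches and 1 CCAAT, but not TGACGC. TAP1 held the NF-kB-like motif and 2 AANNGAAA matches, and its CCAAT match lay at the far end of the window from the start. The window of a second TAP1 start site held none of the motifs. PSMB8 also had 2 windows, 1 with no match and 1 with 2 AANNGAAA matches and an NF-kB-like one. HLA-F, a heavy chain outside the 9, held CCAAT and AANNGAAA but not TGACGC. PSMB9, the gene next to TAP1 on the opposite strand, held 1 CCAAT match and none of the other motifs in its window. Its window overlaps that of TAP1 at the ends far from the starts, and the CCAAT match of both is the same site. The other TAP1 matches lie between the starts of both genes, outside the PSMB9 window.

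CTGATGATG was present in HLA-DRB1 and in the windows of HLA-DMA, HLA-DMB and HLA-DOB, but not in those of CD74 and HLA-DPB1 or in either window of HLA-DPA1. A window without these exact letters may still hold another form of the X box. The first HLA-DPA1 window lies downstream of the HLA-DPB1 start on the opposite strand, so it may not be the usual promoter of HLA-DPA1. Among all 35116 RefSeq promoter windows of the same length, 0.271% held CTGATGATG, 34.6% CCAAT, 22.8% AANNGAAA, 9.14% TGACGC and 16.2% the loosely defined NF-kB-like motif. The motifs were chosen with the sequences in view, and a match describes letters in the reference genome, not a bound site in these cells.

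All 9 genes were listed in both libraries and had a mean of at least 1 FPKM, the minimum for comparison. In log2(FPKM + 1), siYBX1 minus siNC, 5 of the 9 were at least 2-fold higher in the siYBX1 library and 0 were at least 2-fold lower. The 5 were HLA-DRA, PSMB9, HLA-C, TAP1 and HLA-B. Of 10548 compared genes, 759 (7.20%) were higher by this measure and 593 (5.62%) lower, or 12.8% either way. The counts in the gene lists below are to be read beside these shares. In RNA from a whole culture, more cells expressing a gene and more RNA per cell cannot be told apart. The median difference was 1.03 over the 9 genes and 0.02 over all compared genes. HLA-DRA met the minimum through its siYBX1 value alone, since its siNC value was below 1 FPKM, so a difference in it followed from its selection. With both libraries scaled to the same summed FPKM, 570 of all genes were higher and 822 lower. The median of all genes moved by -0.12, and 4 of the 9 genes stayed at least 2-fold higher, HLA-B leaving the group at 0.88. Relative to the median of all genes, HLA-B differed by 1.01 as deposited and by 0.99 at the same total.

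**Figure D1:**
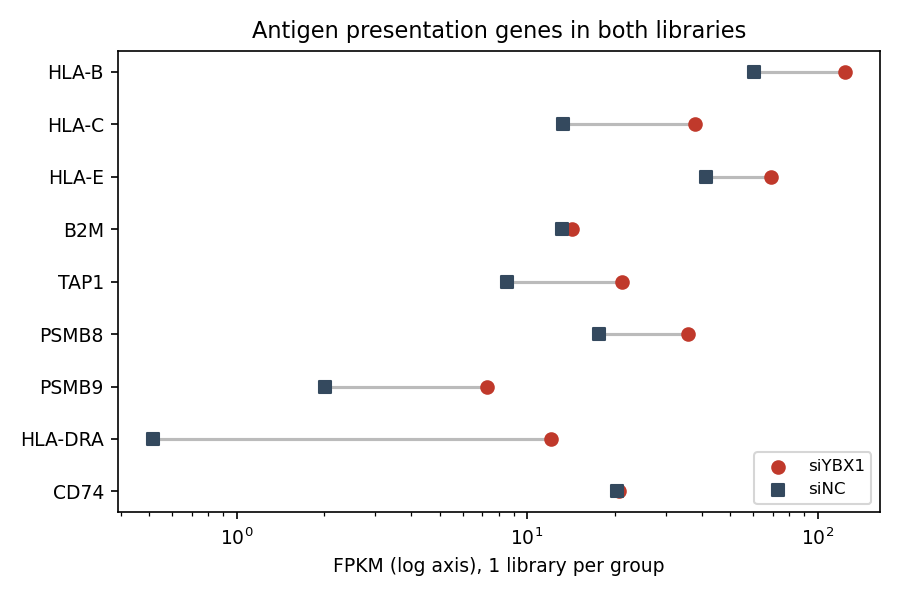
FPKM of the 9 genes on a log axis in the siYBX1 library (circles) and the siNC library (squares), 1 library each, with a line joining the 2 values of a gene. HLA-DRA has the longest line, from 0.516 to 12.1 FPKM, and the symbols of B2M and CD74 nearly coincide.

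Heavy chains of class I bind the peptide and are read by T cell receptors. HLA-B (ENSG00000234745.10_2), a classical heavy chain, had 124 FPKM with siYBX1 and 60.4 FPKM with siNC, a ratio of 2.06 and a log2 difference of 1.03. HLA-C (ENSG00000204525.16_2), the other classical chain described here and also a ligand of killer cell receptors, stood at 37.8 and 13.3 FPKM, a ratio of 2.85 and a log2 difference of 1.44. HLA-E (ENSG00000204592.8_2), which presents leader peptides of other class I chains to natural killer cells, was at 69.1 and 41.4 FPKM, with a log2 difference of 0.72. All 3 heavy chains were thus higher in the siYBX1 library, HLA-E by less than 2-fold. HLA-B and HLA-C are similar enough to share reads, and their summed level was 162 against 73.6 FPKM, a ratio of 2.20. HLA-F, a less common heavy chain that was not among the 9, stood at 2.44 against 0.667 FPKM (log2 difference 1.04, or 0.96 at the same summed FPKM), and HLA-G was listed in neither library.

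The light chain lay within 2-fold. B2M (ENSG00000166710.17_2), whose protein pairs with class I heavy chains, was listed at 14.3 and 13.2 FPKM, a log2 difference of 0.11 that became -0.03 at the same summed FPKM. On the FPKM scale, which is per length, HLA-B stood at 8.70 times the B2M level in the siYBX1 library and at 4.58 times in the siNC library. HLA-C stood at 2.64 times the B2M level in the siYBX1 library and at 1.01 times in the siNC library. Beta-2-microglobulin is commonly an abundant transcript, but here its FPKM exceeded those of only 75.5% of the genes listed in the siYBX1 library and 76.1% of those in the siNC library. HLA-B exceeded 98.5% and 96.6% of them. The ratios between chains therefore rest on a B2M value that was low in both libraries.

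The class I-like molecules, many of them stress ligands of natural killer cells, differed in both directions. Of 18 in the list, 8 could be compared, 1 passed 2-fold upward and 1 downward, and the median difference was -0.02. ULBP2, a ligand of the NKG2D receptor, stood at 20.5 against 9.40 FPKM (1.05), and HFE, a regulator of iron uptake, at 0.764 against 2.55 FPKM (-1.01). HFE met the minimum through its siNC value alone, as did RAET1G (0.662 against 1.82 FPKM), so a lower value in them followed from their selection. ULBP2 left the 2-fold group at the same summed FPKM (0.91) and with the trend of transcript length and GC content removed (0.88), and HFE with that trend removed (-0.90). The NKG2D ligands MICA and MICB had log2 differences of -0.14 and 0.56. ULBP3, another such ligand, stood at 1.39 against 2.93 FPKM (-0.72), 2.11-fold lower as a plain ratio. At a pseudocount of 0.1, 1 gene of this list was higher and 3 were lower.

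Peptide supply differed in some of its steps. TAP1 (ENSG00000168394.10_2), a chain of the peptide transporter, was at 21.2 FPKM in the siYBX1 library and 8.55 FPKM in the siNC library, a ratio of 2.48 and a log2 difference of 1.22. Its partner chain TAP2 stood at 29.6 against 17.6 FPKM (0.71), so the TAP1 level was 0.716 of the TAP2 level in the siYBX1 library and 0.485 of it in the siNC library. Tapasin (TAPBP), which bridges the transporter and the heavy chain, was at 30.5 against 20.3 FPKM (0.56). Of 11 compared genes of peptide loading and trimming, 2 were at least 2-fold higher and 0 lower, with a median of 0.56. The other one past 2-fold was SEC61A1, the pore subunit of the translocon, at 39.2 against 13.9 FPKM (1.44).

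The chaperones of the loading complex were not uniform. Calreticulin (CALR) stood at 285 against 322 FPKM (-0.18) and calnexin (CANX) at 74.6 against 79.2 FPKM (-0.09), while the disulfide isomerase PDIA3 was at 100.1 against 57.4 FPKM (0.79). The peptide-trimming enzyme ERAP1 stood at 9.92 against 4.63 FPKM (0.95), just under 2-fold on this scale, and ERAP2 at 1.51 against 2.05 FPKM (-0.28).

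The inducible proteasome subunits replace constitutive ones and favour cuts that yield class I peptides. PSMB8 (ENSG00000204264.8_2) was listed at 35.7 and 17.8 FPKM, a ratio of 2.01 but a log2 difference of 0.97, so it fell just short of 2-fold once 1 was added to each value. PSMB9 (ENSG00000240065.7_3) stood at 7.30 and 2.02 FPKM, a ratio of 3.61 and a log2 difference of 1.46. The third inducible subunit, PSMB10, stood at 4.02 against 4.07 FPKM (-0.01). Of the chains of the PA28 activator, PSME2 was at 14.6 against 8.20 FPKM (0.76) and PSME1 at 37.0 against 47.4 FPKM (-0.35). In this list of 5 genes, 1 was at least 2-fold higher and 0 lower, with a median of 0.76.

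The constitutive counterparts were also higher in the siYBX1 library, PSMB7 at 159 against 66.5 FPKM (1.24), PSMB6 at 61.7 against 34.97 FPKM (0.80) and PSMB5 at 25.1 against 14.6 FPKM (0.74). With the length and GC trend removed PSMB7 fell just short of 2-fold (0.96), and the median of the 3 was 0.52 in place of 0.80. Levels of an inducible subunit relative to the one it replaces therefore moved unequally. PSMB8 stood at 1.42 times the PSMB5 level with siYBX1 and 1.21 times with siNC. PSMB9 stood at 0.118 of the PSMB6 level in the siYBX1 library and at 0.0578 of it in the siNC library. PSMB10 went the other way, at 0.0254 of the PSMB7 level in the siYBX1 library and 0.0611 of it in the siNC library. Of 9 cytosolic peptidases, 1 was at least 2-fold higher and 0 lower, with a median of 0.26, the 1 being bleomycin hydrolase (BLMH) at 17.9 against 7.85 FPKM (1.10, or 0.96 at the same summed FPKM).

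TAP1, PSMB8 and PSMB9 lie beside each other within the class II region of chromosome 6, and in the GENCODE 29 annotation PSMB9 overlaps both others on the opposite strand. How strand was handled is not given in the sources used here, so reads from these overlaps cannot be told apart. Short transcripts also tended to be higher in the siYBX1 library, with a median difference of 0.22 in the shortest of 10 equal length groups and -0.23 in the longest. PSMB9, at 792 nucleotides, HLA-DRA, at 1280, and PSMB8, at 1351, fall in the shortest group. With the trend of length and GC content removed, the log2 differences were 2.93 for HLA-DRA, 1.09 for PSMB9, 0.73 for PSMB8 and 0.81 for HLA-B.

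**Figure D2:**
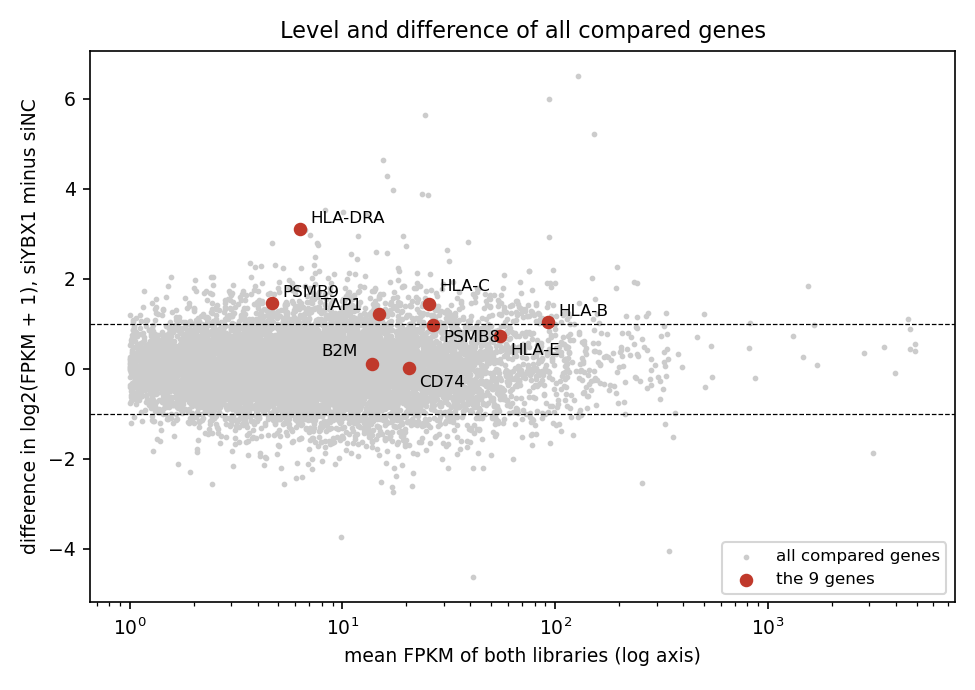
Difference in log2(FPKM + 1), siYBX1 minus siNC, against the mean FPKM of both libraries (log axis) for all 10548 compared genes (grey) and the 9 genes (red, named), with dashed lines at 2-fold. HLA-DRA stands at 3.11 and 4 others lie at or above the upper line, while B2M and CD74 lie near 0.

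Class II genes held both the largest and the smallest difference of the 9 genes. HLA-DRA (ENSG00000204287.13_2), the alpha chain of HLA-DR, had 12.1 FPKM with siYBX1 and 0.516 FPKM with siNC, a ratio of 23.4 and a log2 difference of 3.11. Its difference ranked 13 from the top among the 10548 compared genes. CD74 (ENSG00000019582.14_3), the invariant chain, stood at 20.7 and 20.4 FPKM, a log2 difference of 0.02 that became -0.12 at the same summed FPKM and -0.17 with the length and GC trend removed. CD74 was thus nearly level between the libraries and was 39.5 times the HLA-DRA level in the siNC library, against 1.72 times in the siYBX1 library.

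The partner chains of HLA-DRA were low. HLA-DRB1, the beta chain that pairs with HLA-DRA, stood at 3.82 against 0.239 FPKM (1.96), so HLA-DRA was at 3.16 times its level in the siYBX1 library and 2.16 times in the siNC library. HLA-DPA1 and HLA-DPB1 were listed in the siYBX1 library, at 2.37 and 2.21 FPKM, and not in the siNC library. In all, 12 class II chain genes were sought, of which 4 were found with siYBX1 and 2 with siNC, and both compared genes were at least 2-fold higher. Like HLA-DRA, HLA-DRB1 met the minimum through its siYBX1 value alone, as did HLA-F and HLA-DMA. Over the whole tables, 202 genes were listed in the siYBX1 library alone and 1541 in the siNC library alone. The HLA-DQ chains were listed in neither. HLA-DRB genes are near-identical and the reference carries 1 haplotype, so their single values are uncertain.

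Factors that load class II molecules showed a mixed picture. HLA-DMA, a chain of the peptide exchange factor HLA-DM, stood at 2.74 against 0.688 FPKM (1.15), but its partner HLA-DMB stood at 0.505 against 0.504 FPKM, below the minimum for comparison. HLA-DOB, a chain of the modulator HLA-DO, appeared in the siYBX1 table alone, at 0.635 FPKM. Cathepsin S (CTSS), the protease that makes the last cuts in the invariant chain, stood at 9.68 against 3.59 FPKM (1.22). Other endosomal genes were closer, with CTSB at 16.7 against 8.84 FPKM (0.85), CTSL at 24.7 against 32.1 FPKM (-0.36) and the thiol reductase IFI30 at 7.89 against 6.89 FPKM (0.17). Over the 12 compared genes of this list, 2 were at least 2-fold higher and 0 lower, with a median of 0.15.

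**Figure D3:**
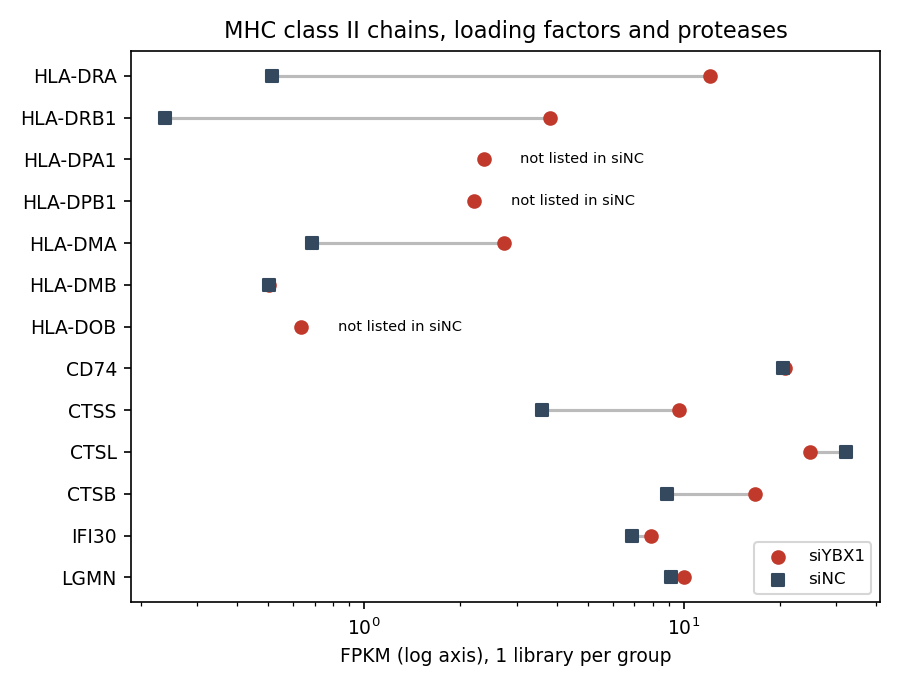
FPKM of 13 class II chains, loading factors and endosomal proteases on a log axis in the siYBX1 library (circles) and the siNC library (squares), 1 library each. HLA-DRA, HLA-DRB1, HLA-DMA and CTSS are at least 2-fold apart, 3 genes have no siNC symbol because they were not listed there, and CD74 stands level at 20.7 and 20.4 FPKM.

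Markers of the cells that normally carry class II were mostly missing. Of 7 pan-leukocyte markers, 3 were listed in each library, and PTPRC, which encodes the defining surface protein CD45, CD53, CD37 and CD48 were in neither. The 3 listed were higher in the siYBX1 library, LCP1 at 68.9 against 8.96 FPKM, LAPTM5 at 31.0 against 16.3 FPKM and CORO1A at 2.34 against 0.212 FPKM, and the list summed to 102 and 25.5 FPKM. Of 6 B cell markers, 1 was found with siYBX1 and 2 with siNC, with sums of 1.07 and 1.25 FPKM, and MS4A1, CD79A and PAX5 were in neither. Of 15 macrophage and dendritic cell markers, 5 and 6 were listed, with sums of 20.2 and 42.4 FPKM. Most of that was CD68, at 17.4 against 39.4 FPKM, while AIF1, ITGAX and SPI1 were in neither library. LAMP3, known from mature dendritic cells, stood at 1.31 against 0.203 FPKM, and LYZ stood at 0.671 against 1.91 FPKM. FCER1G was listed in the siYBX1 library alone at 0.567 FPKM. CD14 was listed in the siNC library alone at 0.484 FPKM, as was FLT3, but at 0 FPKM. Of 10 T and NK cell markers, 0 and 1 were listed. Fibroblast markers summed to 5.88 and 1.21 FPKM, COL1A1 making up 3.67 and 0.351 FPKM, and KDR, at 0.645 FPKM in the siNC library, was the 1 endothelial marker found. What part cells carrying any of these markers, whether higher or lower with siYBX1, had in the class II values was not tested.

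Transcription factors of the SXY module differed in both directions. NLRC5, the class I coactivator, stood at 1.07 against 0.993 FPKM (0.05), and CIITA, the class II coactivator, was listed in neither library. Of the RFX complex that binds the X box, RFXAP stood at 4.32 against 1.46 FPKM (1.12), RFXANK at 7.55 against 5.68 FPKM (0.36) and RFX5 at 7.93 against 14.1 FPKM (-0.76). The CCAAT-binding subunits NFYA, NFYB and NFYC had log2 differences of -0.81, -0.28 and -0.73. The coactivator CREBBP stood at 3.43 against 8.69 FPKM (-1.13), the 1 gene of this list at least 2-fold lower. Removing the trend of length and GC content left it at -0.96, short of 2-fold. Its transcript has 10803 nucleotides.

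Of the NF-kB subunits in the same list, 3 were at least 2-fold higher, RELB at 12.1 against 3.17 FPKM (1.65), NFKB2 at 34.0 against 13.8 FPKM (1.24) and NFKB1 at 12.3 against 5.45 FPKM (1.04, or 0.91 at the same summed FPKM), with RELA at 19.8 against 15.2 FPKM (0.37). STAT3, which relays interleukin signals, stood at 22.9 against 9.45 FPKM (1.20). Over the 20 compared transcription factors, 5 were at least 2-fold higher and 1 lower, with a median of -0.0027.

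Interferon signalling genes differed less, within 2-fold on the log2(FPKM + 1) scale. IRF1, an activator of class I genes that interferon gamma induces, stood at 2.20 against 2.07 FPKM (0.06). The interferon genes of the list, IFNG and IFNB1 among them, were listed in neither library. Of 14 compared receptors and signalling genes, 0 were at least 2-fold different in either direction, with a median of 0.17. Nearest to it was STAT2, a carrier of the type I interferon signal, at 7.04 against 3.07 FPKM, a ratio of 2.29 and a log2 difference of 0.98. The kinase TYK2 stood at 8.90 against 4.62 FPKM (0.82) and JAK2 at 0.668 against 1.58 FPKM (-0.63), 2.36-fold lower as a plain ratio. JAK2 met the minimum through its siNC value alone, so a lower value in it followed from its selection. At a pseudocount of 0.1, 1 gene of this list was higher and 1 lower. The JAK1 kinase stood at 41.2 against 28.9 FPKM (0.50) and the receptor chain IFNGR2 at 26.2 against 16.9 FPKM (0.61). Of 20 compared interferon gamma response genes outside antigen presentation, 1 was at least 2-fold higher and 0 lower, with a median of 0.25, and that one was the adhesion gene ICAM1, at 124 against 26.7 FPKM (2.18). The guanylate-binding gene GBP1 stood at 11.1 against 6.62 FPKM (0.67). Of the 20 compared, 13 had a positive difference, and the lowest was that of CD274, at 2.84 against 4.44 FPKM (-0.50). CXCL9, CXCL10 and IDO1 were listed in neither library. CXCL11 and GBP5 were listed in the siYBX1 library alone, at 1.11 and 0.836 FPKM. SERPING1 and TRIM22 were listed in the siNC library alone, at 1.82 and 0.241 FPKM.

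Genes that remove MHC molecules from the surface or traffic them, and costimulatory ligands, completed the comparison. Of 15 compared turnover genes, 2 were at least 2-fold higher and 1 lower, with a median of 0.60. As plain ratios, MARCH2 (2.43, log2 difference 0.99) and SPPL3 (2.09, log2 difference 0.89) passed 2-fold upward as well. The ubiquitin ligase gene MARCH9 stood at 6.10 against 1.63 FPKM (1.43) and TMEM127, a partner in class I removal, at 10.9 against 4.51 FPKM (1.11, or 0.99 at the same summed FPKM), while RAB11A, a GTPase of recycling endosomes, was at 4.97 against 11.0 FPKM (-1.01, or -0.87 with the length and GC trend removed). On the log2(FPKM + 1) scale, ICAM1 alone of 7 compared costimulatory genes was at least 2-fold higher and 0 were lower. Their median was 0.41. TNFSF9 stood at 1.97 against 0.588 FPKM (0.90), a plain ratio of 3.35, but met the minimum through its siYBX1 value alone. CD80 and CD86, the ligands of CD28 on professional antigen-presenting cells, were listed in neither library, and CD40 stood at 15.5 against 11.4 FPKM (0.41).

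**Figure D4:**
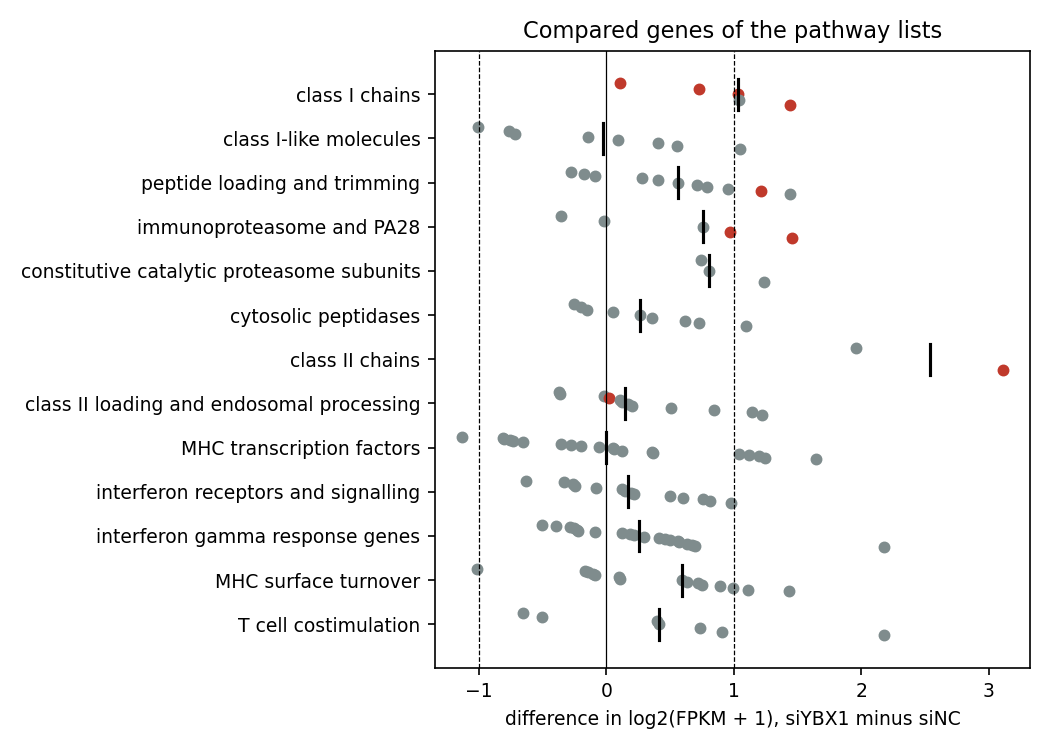
Difference in log2(FPKM + 1), siYBX1 minus siNC, of each compared gene in 13 lists of the antigen presentation pathway, with the median of a list as a black bar, the 9 genes in red and dashed lines at 2-fold. The class I and class II chains lie to the right, and the transcription factors spread from -1.13 to 1.65 around a median of -0.0027.

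The order of levels among the 9 genes changed in the middle and at the bottom. In the siNC library the order from the highest FPKM was HLA-B, HLA-E, CD74, PSMB8, HLA-C, B2M, TAP1, PSMB9 and HLA-DRA. In the siYBX1 library it was HLA-B, HLA-E, HLA-C, PSMB8, TAP1, CD74, B2M, HLA-DRA and PSMB9. With 1 library a group there is no spread to say which neighbours in these orders differ.

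The differences were recomputed under 12 other settings. Those that only change which genes are compared, or how rows with a shared symbol are treated, cannot alter the value of any of the 9. The counts of settings below include them, although their outcome was fixed in advance. HLA-DRA and HLA-C were at least 2-fold higher in all 12, TAP1 in 11 and HLA-B in 9. PSMB9 was so in 10 of the 11 that gave it a value. HLA-DRA ranged from 1.63 at a pseudocount of 5 to 4.30 at a pseudocount of 0.1. HLA-B fell short at a pseudocount of 5 (0.98), at the same summed FPKM (0.88) and with the length and GC trend removed (0.81). HLA-E, B2M and CD74 stayed within 2-fold in all 12.

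**Figure D5:**
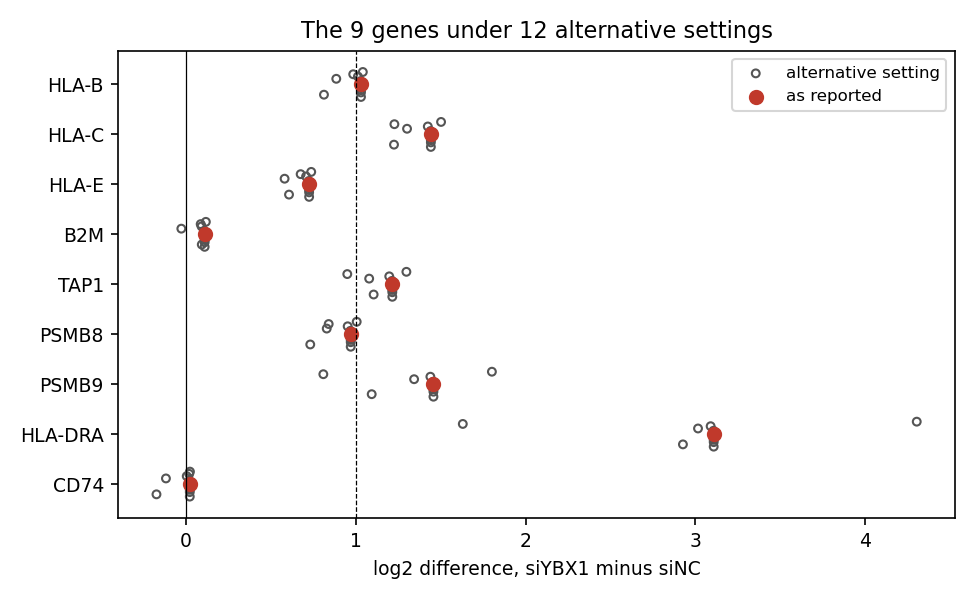
Log2 difference, siYBX1 minus siNC, of the 9 genes as reported (filled red) and under the alternative settings (open circles), with a dashed line at 2-fold. HLA-DRA varies most, from 1.63 to 4.30, and HLA-B and PSMB8 cluster around the dashed line.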

How the data were processed

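Total RNA was extracted with Trizol and made into Illumina libraries, per the labels' protocols. For each library the authors deposited a table of FPKM per gene, per the file headers. Per the submitters' processing notes, cutadapt 1.17, HISAT2 2.1.0, StringTie 1.3.3 and the build GRCh37 were used, with no role or order given. Annotation release, strand handling and the rule for listing a gene: not given in the sources used here. Low values did not fall on whole-fragment steps: at best 41.0% of them lay within 0.05 of a whole number, so the depth could not be recovered.

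Differences were computed as log2(FPKM + 1), siYBX1 minus siNC, where both libraries listed a gene and its mean reached 1 FPKM, and called from 1 (2-fold) either way. Adding 1 understates the differences of low genes. Ratios use no pseudocount. Whether low values and differences near 2-fold would keep their call in another library was not tested. The 9 genes and the pathway lists were chosen with earlier results of these data known. Named genes are the 9, YBX1, other HLA genes and every gene of a pathway list past 2-fold, or the 2 of highest mean FPKM where a list had none. Pathway partners named beside them, such as TAP2, TAPBP, PSMB10, NLRC5, IRF1, STAT2 and MICA, and the cell type markers were picked for their role after values were seen. MARCH2, SPPL3, TNFSF9 and ULBP3 were named for their plain ratios. CXCL11, GBP5, SERPING1 and TRIM22 were named because 1 library alone listed them, and CD274 as the lowest of its list. Transcript lengths, GC content and overlaps come from GENCODE 29 on GRCh38, without coordinates. 12 alternatives were computed with pandas 2.3.3 and patsy 1.0.2. Some genes of the lists are not reported here, and list counts leave them out.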

Additional observations from a re-analysis of the deposited data

How the results depend on the processing

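At pseudocounts of 0.1 and 5, 1097 and 314 genes were at least 2-fold higher and 925 and 209 lower, against 759 and 593 as reported, and 6 and 2 of the 9 genes were higher against 5. The 2 at a pseudocount of 5 were HLA-C and HLA-DRA, and HLA-B (0.98), TAP1 (0.95) and PSMB9 (0.81) fell short. HLA-B also fell short at the same summed FPKM (0.88) and without the trend of length and GC content (0.81), and 4 of the 9 were higher in each of these 2 settings and at a mean of at least 5 FPKM. PSMB8 passed at a pseudocount of 0.1 (1.01). PSMB9 had no value at a mean of at least 5 FPKM, as its own mean is lower. At a pseudocount of 5, at the same summed FPKM and with the trend removed, 1 class I chain was higher against 3 as reported. Of the 19 other genes of the pathway lists past 2-fold, 5 fell short at the same summed FPKM, 7 with the trend removed, HLA-DMA (0.88) among them, and 14 at a pseudocount of 5, where SEC61A1, PSMB7, RELB, NFKB2 and ICAM1 stayed. In the other settings (centring on the median, the same upper quartile, no filter, genes listed at 0 left out, genes of 1 library taken as 0 in the other, shared symbols summed and read-through genes left out), 5 of the 9 were higher and 0 lower. Of these settings, only centring and the upper quartile can change the value of any of the 9. With genes of 1 library taken as 0, 4 class II chains were higher in place of 2. No paired analysis was possible because each group held 1 library. The unknown depth limits low genes most, HLA-DRA and HLA-DRB1 in the siNC library among them.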
